A study of Homo sapiens with 16 samples.

Results

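The 53 genes described here are interferon-stimulated genes and their regulators, chosen by symbol from a list, and all 53 were among the 26485 genes counted. This list and the other gene lists and roles used below were chosen with earlier results of these data known. The shares called among them are therefore descriptions. Polyadenylated RNA was sequenced from 2 colon cancer cell lines, each carrying either dnLEF1 or, as mock control, GFP. The groups were SW620 dnLEF1, SW620 GFP, SW480 dnLEF1 and SW480 GFP, with 4 libraries in each and 16 in all, all at passage 6. SW480 and SW620 are established lines from the primary tumour and a lymph node metastasis of the same patient, and both carry a truncated APC that leaves Wnt signalling on. The labels call GFP cells Wnt high and dnLEF1 cells Wnt inhibited. dnLEF1 is a LEF1 protein without the part that binds beta-catenin, so it can sit at Wnt target genes but does not recruit beta-catenin to them. The labels do not say how the constructs were delivered, whether the cells were clones, or whether replicates came from separate cultures, so the p-values reflect variation among libraries that could be technical in origin.

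Interferons bind receptors at the cell surface and activate the kinases JAK1, JAK2 and TYK2. These phosphorylate STAT proteins, among them STAT2, which joins IRF9 in the complex ISGF3. ISGF3 and related IRF proteins bind the interferon-stimulated response element (ISRE) in promoters, while pairs of STAT proteins bind the GAS element. The induced proteins sense viral RNA, block viral entry and translation, conjugate the ubiquitin-like protein ISG15 to other proteins and present antigen. Many of these genes are also transcribed at a low level without added interferon, and the labels name no interferon treatment.

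Libraries held 17181204 to 26153506 gene counts. Reads given to no gene were 20% to 24.3% for 15 libraries. For the library SW620 GFP replicate 3 they were 50.5%, and reads aligned to several places were 39.4%. LEF1, whose counts cannot separate the construct from the cell's own gene, averaged 23.3 CPM (gene counts scaled to a common library size) in SW620 dnLEF1 and 3.36 CPM in SW620 GFP, and 246 CPM in SW480 dnLEF1 and 51.7 CPM in SW480 GFP. AXIN2, a standard Wnt target, averaged 320 CPM in SW620 dnLEF1 and 333 CPM in SW620 GFP, and 69.8 CPM in SW480 dnLEF1 and 550 CPM in SW480 GFP. AXIN2 therefore differed by −0.06 ± 0.05 on the log2 scale in SW620 (SE, edgeR quasi-likelihood test, adjusted p = 0.607) and by −2.98 ± 0.07 in SW480 (adjusted p = 1.219e-12). The epithelial markers KRT8 and EPCAM were high in every group, at group means of 3715 to 5518 CPM for KRT8 and 311 to 516 CPM for EPCAM. Both were lower in SW480 dnLEF1 than in SW480 GFP. So were VIL1 (2.43 against 35.0 CPM) and CDX2 (0.131 against 12.2 CPM), while CDH1 was higher in SW480 dnLEF1. KRT20, a marker of differentiated colon cells, was at a group mean of 0.279 CPM or less.

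The promoters are shown first because the ISRE is the DNA element these genes are known to share. RefSeq promoters (GRCh38.p14, 250 bases before to 50 after the start of each gene) matched 40 of the 53 members. The ISRE core was searched as GAAA, any 2 bases and GAAA again, on both strands and with overlapping matches included, and 26 of the 40 promoters held it (65.0%), against 3.57% of all 35116 promoters in the table. The GAS letters TTCNNNGAA were in 10 of the 40 (25.0%), against 7.66% of all. The TCF/LEF core CTTTGA was in 5 of the 40 (12.5%), against 12.9% of all. Both strands were read for each, and matches of different motifs that overlap were all kept. The 7 stretches below come from members that were higher in SW480 dnLEF1 (ISG15, IFI27, IFIT3, IFITM3 and HERC5), a member that was lower there (SAMD9) and a member that did not pass the test (IFI6). Each is written 5′ to 3′ on the strand of the gene, with the ISRE letters or their reverse complement in capitals.
ISG15, chr1:1013364-1013419, plus strand: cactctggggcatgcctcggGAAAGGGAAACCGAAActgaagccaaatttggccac
IFI27, chr14:94110608-94110670, plus strand: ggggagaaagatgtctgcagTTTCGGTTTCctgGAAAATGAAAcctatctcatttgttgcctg
IFIT3, chr10:89327821-89327904, plus strand: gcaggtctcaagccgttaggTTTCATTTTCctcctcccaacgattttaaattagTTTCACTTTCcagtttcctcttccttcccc
IFITM3, chr11:320866-320932, minus strand: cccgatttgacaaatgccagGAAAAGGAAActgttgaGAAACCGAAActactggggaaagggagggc
HERC5, chr4:88456974-88457074, plus strand: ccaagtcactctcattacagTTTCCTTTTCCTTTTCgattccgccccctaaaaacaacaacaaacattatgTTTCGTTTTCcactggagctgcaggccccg
SAMD9, chr7:93118086-93118135, minus strand: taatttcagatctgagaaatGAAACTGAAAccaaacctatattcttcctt
IFI6, chr1:27672278-27672368, minus strand: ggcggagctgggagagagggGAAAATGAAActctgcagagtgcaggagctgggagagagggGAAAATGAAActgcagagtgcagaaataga
In ISG15 the 2 ISRE matches overlap, and HERC5 has 3 matches, of which 2 overlap. By the SW480 test described next, the element was in 15 of the 24 matched promoters of members that were higher in SW480 dnLEF1, in the 1 matched promoter of a member that was lower, in 7 of 11 of members that did not pass the test and in 3 of 4 of members not tested. The letters thus stood in a similar share of the members that were higher and of those that did not pass.

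In SW480, most interferon response genes were higher in dnLEF1 than in GFP cells. Of 53 members, 49 had enough counts to be tested, and 33 of these were higher (67.3%), against 24.2% of the 14426 genes tested. The members that were lower numbered 2 (4.08%), SAMD9 and OAS2, against 24.4% of all genes tested. Without SW480 GFP replicate 1 they numbered 4, with MX2 and OAS1 added. The other 14 did not pass the test, which was edgeR's quasi-likelihood test with Benjamini-Hochberg adjustment over all tested genes at 0.05. The median log2 difference over the 49 was 0.53, against −0.0013 over all genes tested, and the members ranged from −1.21 to 3.20. A difference of at least 2-fold was passed by 13 of the 49 that were higher, against 5.34% of all genes tested, and by 2 that were lower, against 5.55%. GBP1, TRIM22, XAF1 and SAMD9L, counted among the 33 and the 13, had too few counts in SW480 GFP and entered the test through dnLEF1. They could thus be called only as higher. OASL, also counted there, had too few counts in SW480 GFP replicate 1 (9 counts) to enter through SW480 GFP alone. For the counts by role below, the share over all genes tested is again 24.2% higher and 24.4% lower. In bulk RNA, more RNA per cell and more cells with that RNA cannot be told apart. The members held 0.123% to 0.128% of all gene counts in SW480 dnLEF1 libraries and 0.0992% to 0.108% in SW480 GFP libraries.

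**Figure D1:**
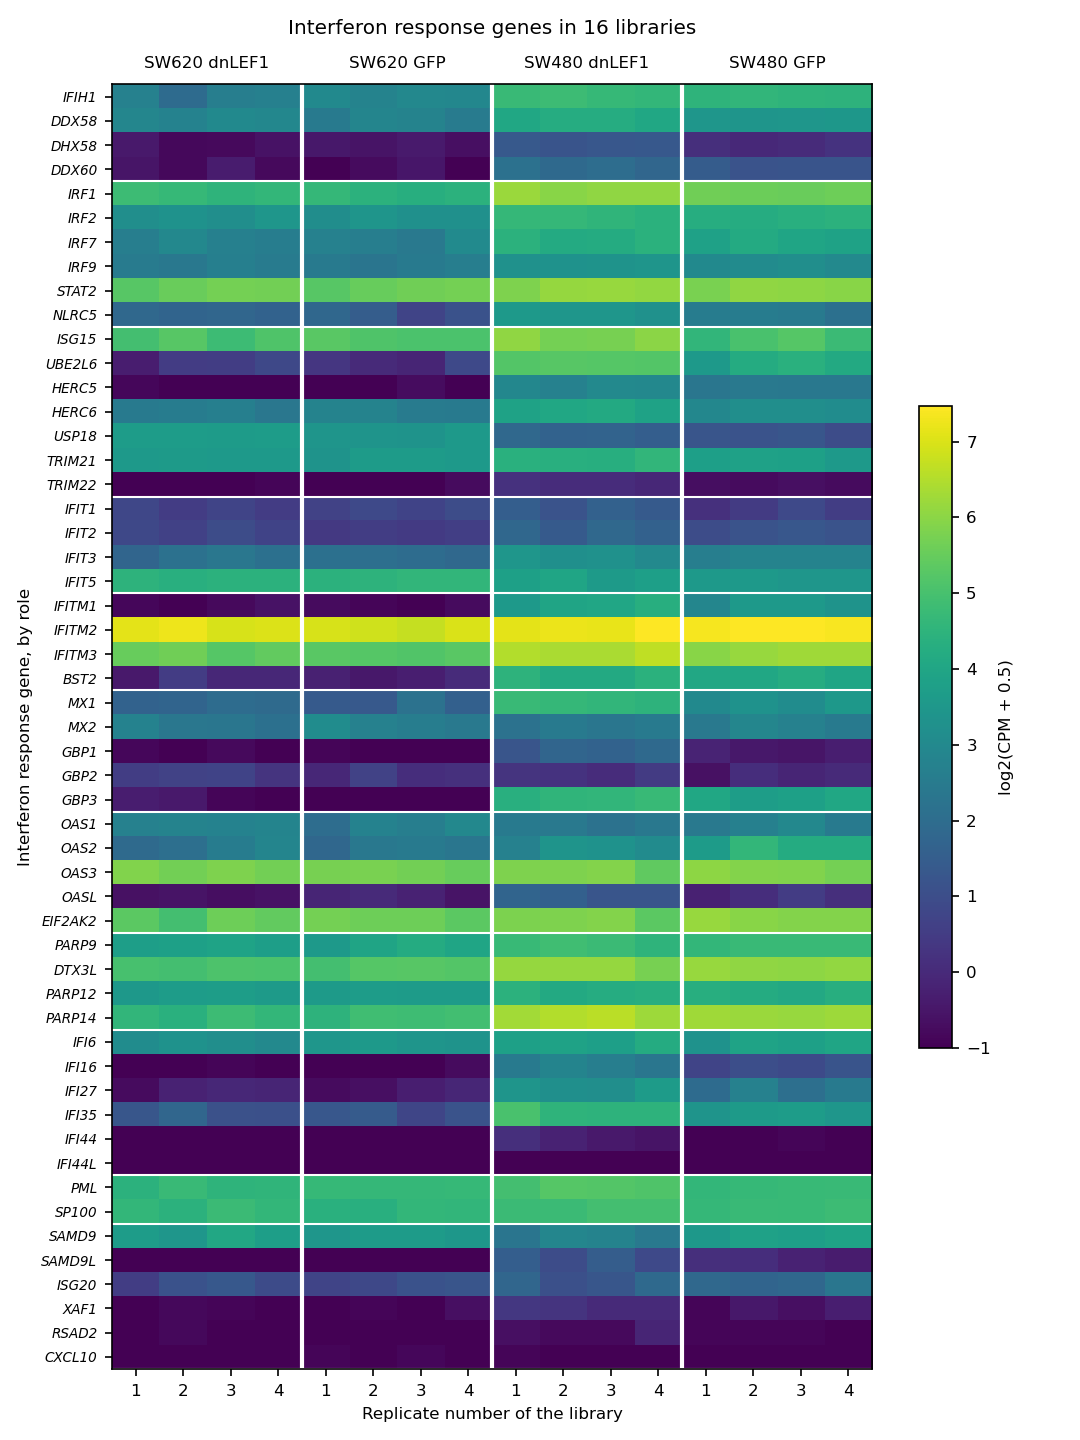
Level of each of the 53 members in each of the 16 libraries, as log2 of CPM with a pseudocount, with members in rows grouped by role and libraries in columns by group. By the test, 33 members are higher in SW480 dnLEF1 than in SW480 GFP, with overlapping libraries for IRF2 and PARP14. Many rows are near 0 CPM in both SW620 groups.

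All 4 cytosolic RNA helicases were higher in SW480 dnLEF1. DDX58 (RIG-I), which senses viral RNA with an unprotected end, had 16.2, 18.5, 18.4 and 16.02 CPM in SW480 dnLEF1, against 10.4, 10.1, 10.3 and 10.6 CPM in SW480 GFP. The groups did not overlap, and the log2 difference was 0.74 ± 0.09 (SE, n = 4 each, edgeR adjusted p = 8.037e-06). DHX58 (LGP2), which modulates RIG-I and MDA5, averaged 1.97 ± 0.12 CPM in dnLEF1 and 0.573 ± 0.085 CPM in GFP (SD, n = 4 each), a log2 difference of 1.78. DDX60, a helicase linked to RIG-I signalling, averaged 3.45 and 1.91 CPM in dnLEF1 and GFP cells, a log2 difference of 0.85. IFIH1 (MDA5), the sensor of long double-stranded RNA, differed by less, 0.19 ± 0.07 (edgeR adjusted p = 0.0477). IFIH1 lost its call in 7 of the 8 fits that left out 1 library, all but the fit without SW480 dnLEF1 replicate 4.

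Among the 6 transcription factors and co-activators, 5 were higher in SW480 dnLEF1. NLRC5, the co-activator of MHC class I genes, had 11.46, 10.5, 10.5 and 9.31 CPM in dnLEF1 and 5.41, 5.36, 5.09 and 3.92 CPM in GFP. Every dnLEF1 library was above every GFP library, and the log2 difference was 1.08 ± 0.13 (SE, edgeR adjusted p = 7.496e-06). IRF1, an activator that responds strongly to interferon gamma, had 72.3, 62.7, 66.0 and 66.5 CPM in dnLEF1, against 49.7, 47.6, 45.6 and 48.6 CPM in GFP. The IRF1 groups did not overlap (log2 difference 0.49 ± 0.07). IRF7, which amplifies interferon production, differed by 0.35, IRF9, the DNA-binding part of ISGF3, by 0.27 and IRF2, known mainly as a repressor that competes with IRF1, by 0.26. IRF9 lost its call in 6 of the 8 fits that left out 1 library, and IRF2, whose groups overlapped, in 2 of them. STAT2, a subunit of ISGF3, averaged 66.6 ± 6.3 CPM in dnLEF1 and 61.9 ± 5.6 CPM in GFP (SD, n = 4 each) and did not pass the test (log2 difference 0.11 ± 0.08, edgeR adjusted p = 0.300).

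All 7 members grouped here as the ISG15 system and ubiquitin ligases were higher in SW480 dnLEF1. DTX3L, also a ubiquitin ligase, was grouped with the PARP genes and did not pass (−0.05 ± 0.09, edgeR adjusted p = 0.644). ISG15, the ubiquitin-like modifier itself, had 66.8, 51.6, 52.8 and 63.7 CPM in dnLEF1, against 23.3, 32.6, 37.0 and 27.1 CPM in GFP. The lowest dnLEF1 library was above the highest GFP library (log2 difference 0.97 ± 0.13, edgeR adjusted p = 2.61e-05). UBE2L6, the enzyme that carries ISG15 to its ligase, had 36.8, 38.4, 37.1 and 36.6 CPM in dnLEF1, against 11.4, 17.9, 20.4 and 17.2 CPM in GFP. UBE2L6 was close to even among the dnLEF1 libraries and the GFP library of replicate 1 was the lowest (log2 difference 1.16 ± 0.13, edgeR adjusted p = 5.064e-06). HERC5, the main human ISG15 ligase, averaged 6.97 ± 0.57 CPM in dnLEF1 and 4.75 ± 0.16 CPM in GFP (SD, n = 4 each; log2 difference 0.56). HERC6, its close relative, had 14.2, 15.96, 17.4 and 14.2 CPM in dnLEF1, against 7.15, 8.54, 8.62 and 8.30 CPM in GFP. The HERC6 groups did not overlap (log2 difference 0.93 ± 0.10, edgeR adjusted p = 4.995e-06). USP18, which removes ISG15 and dampens the type I receptor, differed by 0.64. TRIM21, a cytosolic antibody receptor and ubiquitin ligase, differed by 0.68. TRIM22, an antiviral TRIM protein, was low throughout, at 0.554 CPM in dnLEF1 and 0.110 CPM in GFP (log2 difference 2.28 ± 0.38).

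**Figure D2:**
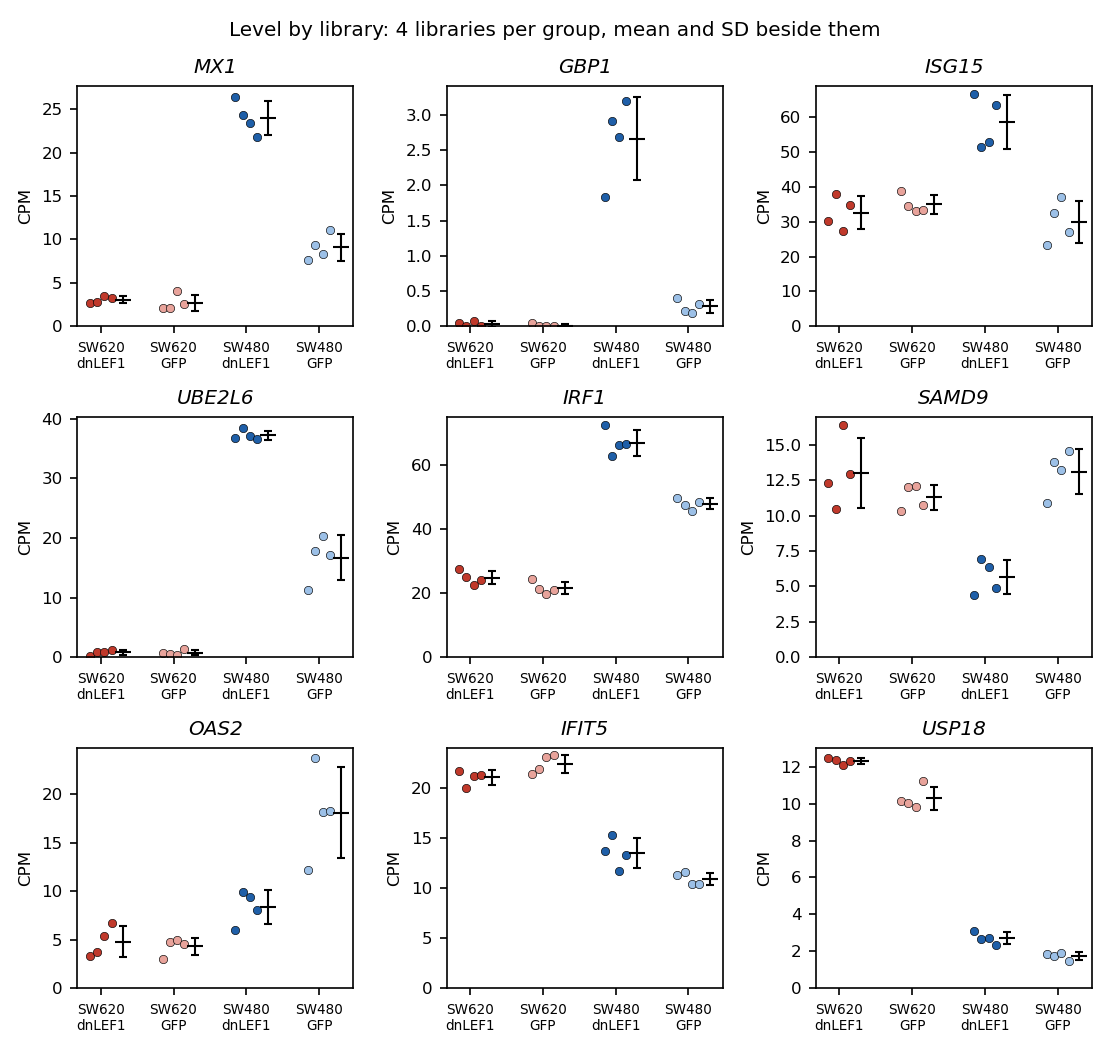
CPM of 9 members in every library, with 1 point per library and the mean and SD of the 4 libraries beside the points, in panels that each start at 0. MX1 is at 21.8 to 26.4 CPM in SW480 dnLEF1 and 7.58 to 11.1 CPM in SW480 GFP, and is at 4.05 CPM or less in all 8 SW620 libraries.

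The 4 IFIT proteins, which bind viral RNA ends and block translation, were all higher in SW480 dnLEF1. IFIT1 had 2.41, 1.74, 2.57 and 2.13 CPM in dnLEF1, against 0.632, 0.894, 1.33 and 0.957 CPM in GFP, with no overlap (log2 difference 1.23 ± 0.24, edgeR adjusted p = 8.103e-04). IFIT2, IFIT3 and IFIT5 differed by 0.67, 0.53 and 0.31, and IFIT5 lost its call in 3 of the 8 fits that left out 1 library. Of the IFITM proteins and tetherin, which restrict viral entry and release, IFITM1 (0.64) and IFITM3 (0.34) were higher, while IFITM2 (−0.17 ± 0.07, edgeR adjusted p = 0.0754) and BST2 (0.21 ± 0.10, adjusted p = 0.105) did not pass. The IFITM genes lie side by side and are similar in sequence. Reads aligned to several places are outside the gene counts, so the split of reads among these genes is uncertain. IFITM1 had 5 counts over the SW620 GFP libraries, beside 10113 for IFITM2 and 3217 for IFITM3. Few reads of IFITM2 and IFITM3 were thus counted as IFITM1. Per kilobase of exon, IFITM2 had the highest level of all members in SW480 GFP, at 107 CPM per kilobase, followed by ISG15 at 34.6 and IFITM3 at 25.2.

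Of the MX and GBP GTPases, 3 of 5 were higher in SW480 dnLEF1. MX1, which traps viral nucleocapsids, had 26.4, 24.3, 23.4 and 21.8 CPM in dnLEF1, against 7.58, 9.39, 8.28 and 11.1 CPM in GFP. The MX1 groups were far apart, by a log2 difference of 1.41 ± 0.11 (SE, n = 4 each, edgeR adjusted p = 1.586e-07). MX2, which blocks nuclear entry of HIV, had 4.62 ± 0.42 CPM in dnLEF1 and 5.70 ± 0.98 CPM in GFP (SD, n = 4 each) and did not pass. GBP1, a GTPase that coats intracellular bacteria, had 1.84, 2.92, 2.69 and 3.20 CPM in dnLEF1, against 0.395, 0.224, 0.190 and 0.319 CPM in GFP. The GBP1 groups did not overlap, and its log2 difference of 3.20 ± 0.29 was the largest among the tested members (edgeR adjusted p = 5.35e-07). GBP1 was tested only through its dnLEF1 counts, so this rank is a description. GBP3 was higher by 0.67 on the log2 scale, and GBP2, at 0.76 ± 0.35, did not pass. GBP genes are close copies of one another, so how reads were shared among them is uncertain.

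Of the OAS family, enzymes that respond to double-stranded RNA, and the kinase PKR, 1 member was higher and 1 lower in SW480 dnLEF1. OASL, a catalytically inactive relative that supports RIG-I, had 2.84, 2.54, 1.85 and 1.85 CPM in dnLEF1, against 0.356, 0.581, 0.905 and 0.593 CPM in GFP (log2 difference 1.92 ± 0.28). OAS2 had 6.04, 9.95, 9.38 and 8.01 CPM in dnLEF1, against 12.2, 23.7, 18.1 and 18.2 CPM in GFP. All 4 dnLEF1 libraries were below all 4 GFP libraries for OAS2 (log2 difference −1.11 ± 0.18, edgeR adjusted p = 1.924e-04). OAS1 (−0.31), OAS3 (−0.12) and EIF2AK2 (−0.25), which encodes the translation-blocking kinase PKR, did not pass.

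Of the 4 tested IFI genes, 3 were higher in SW480 dnLEF1. IFI16, a nuclear DNA sensor, had 5.16, 6.52, 5.72 and 4.49 CPM in dnLEF1, against 1.19, 1.57, 1.38 and 1.82 CPM in GFP, a log2 difference of 1.89 ± 0.18 (edgeR adjusted p = 9.372e-07). IFI35, a leucine zipper protein that partners NMI, had 32.7, 22.6, 21.8 and 21.6 CPM in dnLEF1, against 10.1, 11.8, 12.4 and 10.4 CPM in GFP. Replicate 1 was the highest dnLEF1 library for IFI35, and the groups did not overlap (log2 difference 1.15 ± 0.14). IFI27, a mitochondrial protein, differed by 1.13, and IFI6, which opposes cell death, did not pass at 0.16 ± 0.14.

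SAMD9 and SAMD9L, neighbouring genes on chromosome 7 whose proteins restrict poxviruses, differed in opposite directions in SW480. SAMD9 had 4.42, 6.94, 6.35 and 4.86 CPM in dnLEF1, against 10.9, 13.8, 13.2 and 14.6 CPM in GFP, with every dnLEF1 library below every GFP library (log2 difference −1.21 ± 0.14, edgeR adjusted p = 9.738e-06). SAMD9L had 2.41, 1.44, 2.32 and 1.34 CPM in dnLEF1, against 0.592, 0.581, 0.381 and 0.274 CPM in GFP (log2 difference 2.01 ± 0.31, adjusted p = 9.531e-05). XAF1, a pro-apoptotic protein that opposes XIAP, was higher by 1.80, while ISG20, an RNA exonuclease, did not pass at −0.48 ± 0.23. Of the nuclear body genes, PML was higher by 0.46 ± 0.08, and SP100, at 0.13 ± 0.08, did not pass. PARP14, an ADP-ribosyltransferase, was higher by 0.21 ± 0.08 (edgeR adjusted p = 0.0427), its groups overlapped, and it lost the call in 6 of the 8 fits that left out 1 library. PARP9 (0.02), its ubiquitin ligase partner DTX3L (−0.05) and PARP12 (0.06) did not pass. PARP9 and DTX3L overlap at their ends, and without a stated strand setting their reads there cannot be told apart.

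The 4 members not tested in SW480 had few counts. IFI44 had 33 counts over the dnLEF1 libraries and 1 over the GFP libraries, a ratio of 32.6 with a 95% counting interval of 5.45 to 1325. Its GFP count was in replicate 3, and without that library IFI44 was at least 8.34-fold higher in dnLEF1, against a limit of 3 counts over the group. RSAD2 (viperin), which makes a chain-terminating nucleotide, had 16 and 3 counts in dnLEF1 and GFP, a ratio of 5.26 (1.51 to 28.2). Of the 16 RSAD2 counts, 9 were in dnLEF1 replicate 4, and without it the ratio was 3.01 (0.687 to 18.0). CXCL10, a chemokine for T cells, had 1 and 0 counts, and IFI44L had none in any library, which with 3 counts as the limit for a count of 0 allows up to 0.0327 CPM in SW480 dnLEF1. These intervals and limits cover counting error only.

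In SW620, no member passed the same test between dnLEF1 and GFP cells. Of 53 members, 37 were tested and 0 were called by edgeR, DESeq2 or limma voom, against 8.46% of the 13336 genes tested by edgeR in either direction, 6.03% higher and 2.43% lower. At an unadjusted p below 0.05, 4 were higher (IFITM2, IFITM3, IRF1 and USP18) and 2 lower (IFI6 and IFIH1), against 19.8% of all genes tested. The median log2 difference was 0.06 over the 37 and −0.0044 over all genes, and the largest absolute value was 0.47. Members held 0.0609% to 0.0636% of gene counts in SW620 dnLEF1 and 0.0582% to 0.0620% in SW620 GFP. Leaving out SW620 GFP replicate 3, the library with the large share of multiply aligned reads, also gave 0 calls. Leaving out SW620 dnLEF1 replicate 3 gave 1, IFITM3, which was higher in dnLEF1. A fit with the replicate number as a block called 1 member higher (IFITM2) and 3 lower (IFI6, IFIH1 and MX2). That fit called 1149 of all 13336 genes tested higher and 676 lower. LEF1 was higher in SW620 dnLEF1 by 2.79 ± 0.12, while AXIN2 did not pass (−0.06 ± 0.05, edgeR adjusted p = 0.607).

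**Figure D3:**
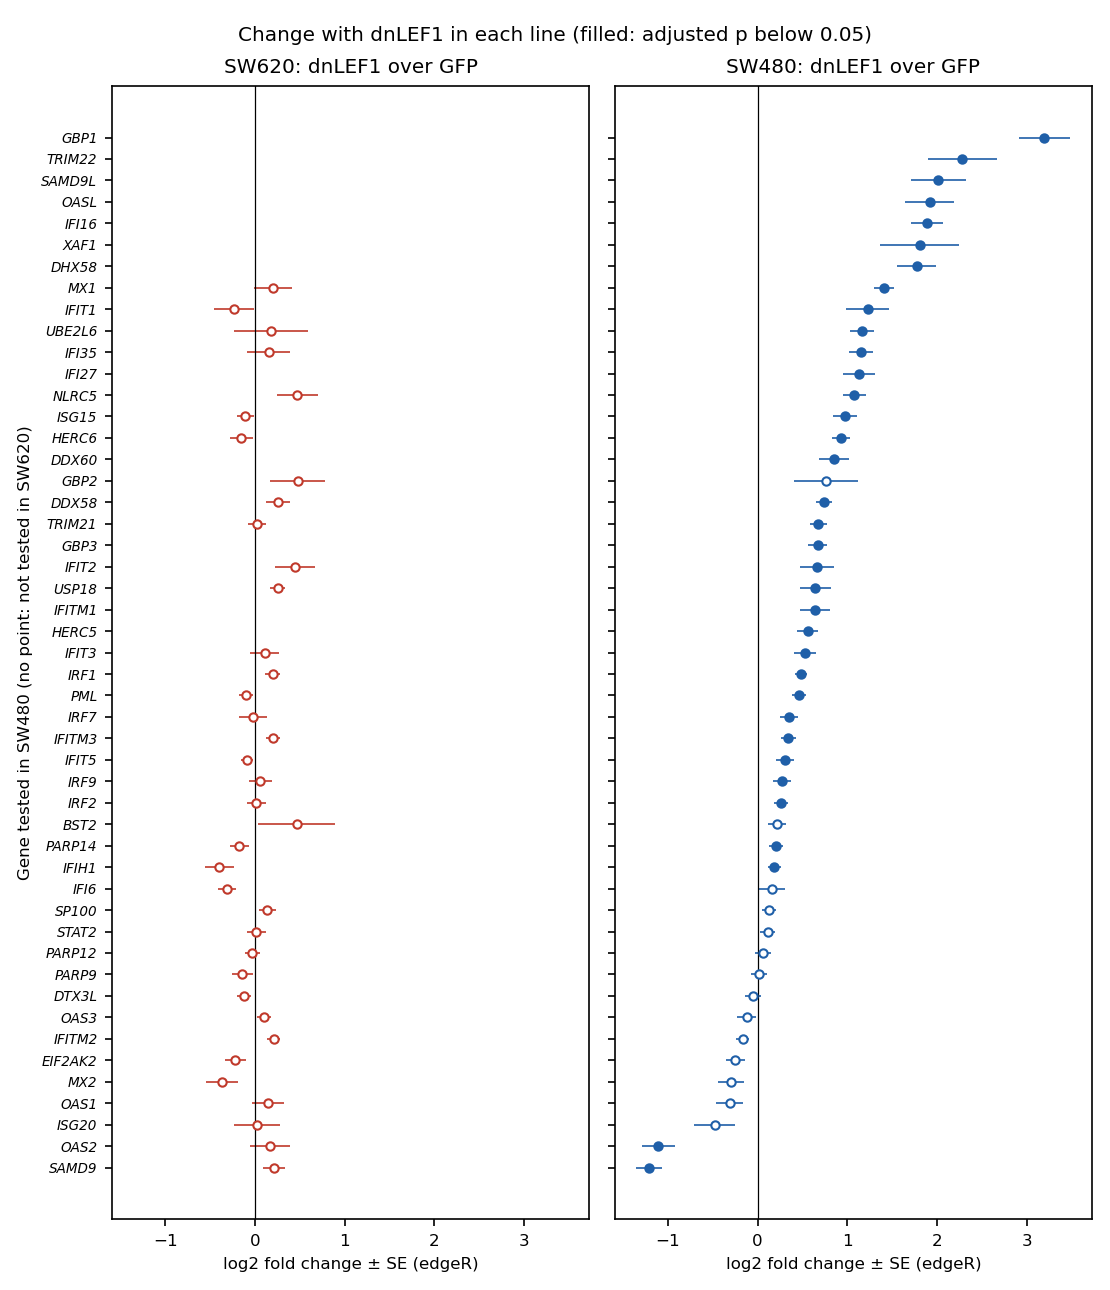
Log2 difference between dnLEF1 and GFP cells in SW620 (left) and SW480 (right) for each member tested in SW480, ordered by the SW480 difference, with bars for the standard error and filled points for an adjusted p below 0.05. In SW620 the points lie between −0.40 and 0.47, and in SW480 between −1.21 and 3.20.

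ISG15 in SW620 had 30.4, 37.9, 27.3 and 34.8 CPM in dnLEF1, against 38.9, 34.6, 33.0 and 33.5 CPM in GFP. The groups overlapped, and the log2 difference was −0.11 with an interval of 2 standard errors from −0.30 to 0.08. MX1 had 2.67, 2.82, 3.5 and 3.28 CPM in SW620 dnLEF1, against 2.13, 2.08, 4.05 and 2.55 CPM in SW620 GFP (0.21, interval −0.22 to 0.63). HERC6 differed by −0.15 (−0.41 to 0.11) and IFIT1 by −0.24 (−0.68 to 0.21). USP18 had 12.5, 12.3, 12.1 and 12.3 CPM in SW620 dnLEF1, against 10.2, 10.01, 9.80 and 11.2 CPM in SW620 GFP. The USP18 groups did not overlap, but the log2 difference of 0.25 ± 0.09 missed the threshold (edgeR adjusted p = 0.0965). IFIH1 had 6.18, 3.44, 5.70 and 5.97 CPM in SW620 dnLEF1, against 7.66, 6.36, 7.29 and 7.01 CPM in SW620 GFP, with no overlap (−0.40 ± 0.16, adjusted p = 0.168). GBP3 had 11 counts over the SW620 dnLEF1 libraries and 0 over the SW620 GFP libraries, at least 3.62-fold higher in dnLEF1 against a limit of 3 counts over the group. The dnLEF1 libraries had 6, 4, 1 and 0 GBP3 counts, and without replicate 1 the bound was 2.15-fold. The 16 members not tested in SW620 were OASL, IFI16, IFI27, IFI44, IFI44L, IFITM1, DHX58, DDX60, SAMD9L, HERC5, TRIM22, GBP1, GBP3, XAF1, CXCL10 and RSAD2. Their group means in SW620 were 0.367 CPM or less.

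The effects of dnLEF1 in the 2 lines were compared directly, as the SW620 effect minus the SW480 effect in a fit of all 16 libraries. The Wnt target AXIN2 itself had a difference of 2.92 ± 0.08 (SE, edgeR adjusted p = 1.023e-15). LEF1 averaged 23.3 CPM in SW620 dnLEF1 and 246 CPM in SW480 dnLEF1. How far the members' differences go with these was not tested. Of 49 members tested, 14 had a lower effect in SW620 (28.6%), against 12.3% of the 14926 genes tested, and 3 had a higher effect (6.12%), against 16.2%. The difference was −1.08 ± 0.16 for HERC6 (SE, edgeR adjusted p = 3.408e-05), −1.08 ± 0.18 for ISG15, −1.19 ± 0.24 for MX1 and −1.46 ± 0.32 for IFIT1. TRIM21 (−0.65), PML (−0.55), DHX58 (−2.28), OASL (−3.15), IFI35 (−1.01), IFIH1 (−0.58), DDX58 (−0.48), IFIT5 (−0.39), PARP14 (−0.38) and IRF1 (−0.29) were the others. PARP14 and IRF1 each lost the call in 11 of the 16 fits that left out 1 library, and DDX58 in 1. Without SW620 GFP replicate 3, 14 members had a lower effect and 3 a higher effect. SAMD9 (1.42 ± 0.20), OAS2 (1.28 ± 0.31) and IFITM2 (0.38 ± 0.11) had the higher effect in SW620. SAMD9 averaged 13.0 ± 2.5 CPM in SW620 dnLEF1 and 11.3 ± 0.9 CPM in SW620 GFP (SD, n = 4 each), while in SW480 it was lower in dnLEF1. Of the 21 members that were higher in SW480 dnLEF1 and tested in SW620, 12 had a called lower effect in SW620, against 12.3% of all genes tested. The 21 were selected by SW480 libraries that also enter this fit, which favours a lower effect in SW620, so the count is a description. A further 12 that were higher in SW480 were too low to test in SW620, and 2 of them, OASL and DHX58, had a called difference. For genes near 0 in SW620, such as SAMD9L and GBP1, the difference has no usable precision.

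Without dnLEF1, the response genes were lower in SW620 than in SW480. Of 45 members tested, 34 were lower in SW620 GFP than in SW480 GFP (75.6%), against 40.3% of the 14350 genes tested, and 2 were higher (4.44%), against 37.7%. At least 2-fold lower were 19 of the 45, against 19.6% of all genes tested, and the median log2 difference was −0.83, against −0.02 over all genes. IFI16, IFI27, IFITM1, DHX58, DDX60, HERC5, BST2 and GBP3, counted among the 34 and the 19, had few counts in SW620. These members entered through SW480 GFP and could thus be called only as lower. UBE2L6, also counted there, had too few counts in SW620 GFP replicate 3 (8 counts) to enter through SW620 GFP alone. The comparison shares the SW480 GFP libraries with the SW480 comparison of dnLEF1, so the 2 are not independent. IFI44, IFI44L, SAMD9L, TRIM22, GBP1, XAF1, CXCL10 and RSAD2 were not tested. IFI6, called lower, lost its call in 4 of the 8 fits that left out 1 library, among them that without SW620 GFP replicate 3, and OAS3 in 2. Members with a mean below 0.5 CPM numbered 17 in SW620 GFP and 9 in SW480 GFP.

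**Figure D4:**
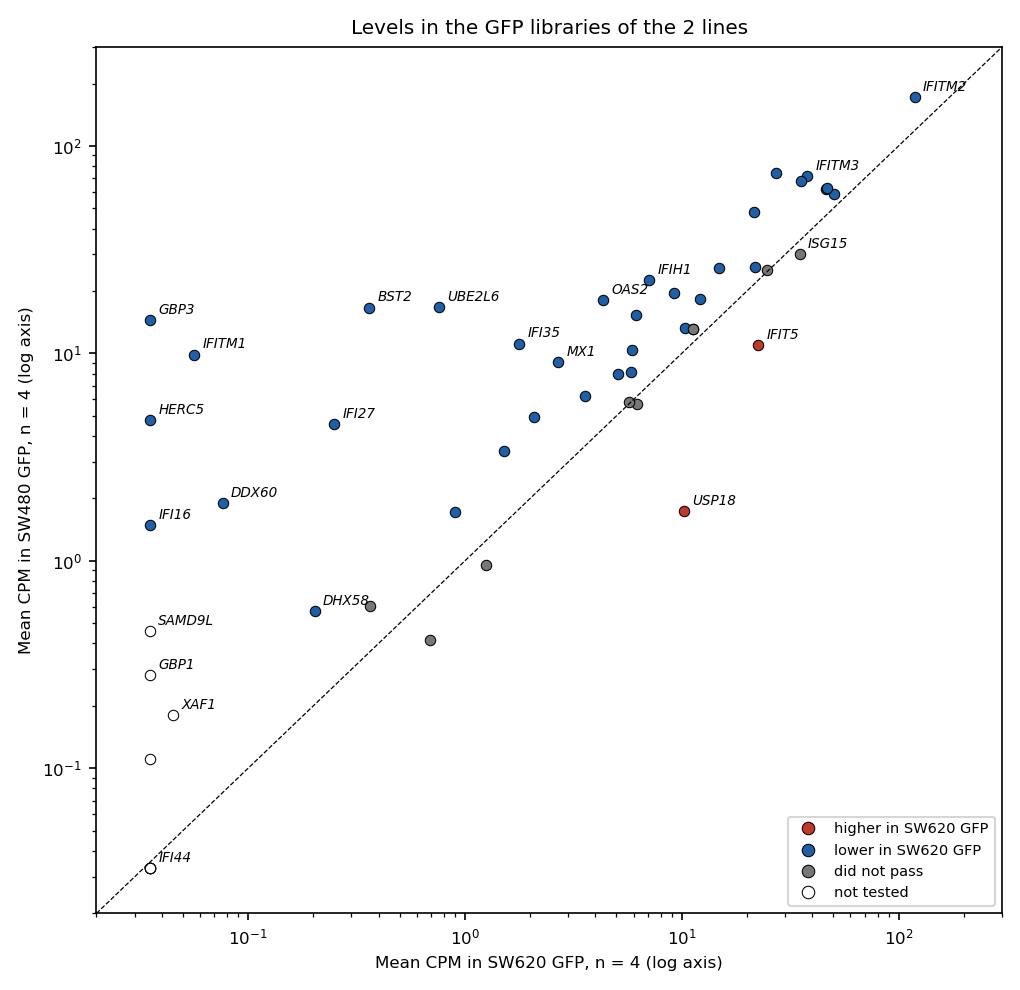
Mean CPM of each member in SW620 GFP (horizontal) and SW480 GFP (vertical), on log axes, with members under the level of 3 counts over a group drawn at that level and a dashed line of equal levels. The 34 members lower in SW620 lie above the line, BST2, IFITM1, GBP3 and HERC5 farthest from it, and USP18 and IFIT5 lie below it.

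BST2 (tetherin), which holds budding virus at the cell surface, had 0.363, 0.231, 0.320 and 0.536 CPM in SW620 GFP, against 16.5, 16, 18.6 and 15.4 CPM in SW480 GFP. The groups were far apart (log2 difference −5.49 ± 0.18, edgeR adjusted p = 1.6e-12). IFITM1 averaged 0.0565 CPM in SW620 GFP and 9.86 CPM in SW480 GFP (−7.26 ± 0.34). GBP3 had no counts over the SW620 GFP libraries and 1321 over the SW480 GFP libraries, at least 412.5-fold lower in SW620. HERC5 had 2 counts in SW620 GFP and 430 in SW480 GFP, a ratio of 201 with a counting interval of 55.4 to 1668. Both SW620 counts were in replicate 3, the library with many multiply aligned reads, and without it HERC5 was at least 105-fold lower in SW620. UBE2L6 averaged 0.761 CPM in SW620 GFP and 16.7 CPM in SW480 GFP (−4.43 ± 0.26, edgeR adjusted p = 1.144e-09). IFI35 differed by −2.64 ± 0.16, IFIH1 by −1.67 ± 0.09 and PARP14 by −1.45 ± 0.08. By role, all 6 transcription factors, all 4 helicases, all 4 IFITM proteins and tetherin, and all 4 genes of the PARP and DTX3L group were lower in SW620. All 4 tested IFI genes were lower too, where 40.3% of all genes tested were lower. Other roles were mixed: 3 of 5 OAS and PKR genes, 3 of 6 of the ISG15 group, 2 of 4 IFIT and 2 of 4 MX and GBP genes tested were lower. So were 1 of 2 nuclear body genes and 1 of 2 tested other effectors. IFI16 had 2 counts in SW620 GFP and 134 in SW480 GFP (ratio 62.8, interval 17.04 to 524). Both SW620 counts were in replicate 4, and without it IFI16 was at least 30.8-fold lower in SW620.

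ISG15 and MX2 did not pass between the GFP groups: ISG15 averaged 35.0 ± 2.7 CPM in SW620 GFP and 30.0 ± 6.0 CPM in SW480 GFP (SD, n = 4 each). USP18 was the member with the largest difference in the other direction, at 10.2, 10.01, 9.80 and 11.2 CPM in SW620 GFP, against 1.86, 1.74, 1.90 and 1.46 CPM in SW480 GFP. Its groups did not overlap (log2 difference 2.55 ± 0.13, edgeR adjusted p = 2.428e-10). IFIT5, which binds cellular and viral RNA, averaged 22.5 ± 0.9 CPM in SW620 GFP and 10.95 ± 0.61 CPM in SW480 GFP (log2 difference 1.03 ± 0.08).

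The genes around each member on its chromosome were compared with it, using up to 20 tested genes that are not members, split between its sides in chromosome order (15 for the IFITM genes). In SW480, their median log2 difference between dnLEF1 and GFP ranged from −0.31 around IRF1 to 0.39 around ISG15, while the members called higher exceeded their neighbours by a median of 0.79. All 33 members called higher lay above their neighbours' median, which is a description, because these members were called for being high. The 3 IFITM genes had neighbours at 0.29 and IRF7 at 0.32. IFITM3 (0.34) lay only 0.05 above its neighbours and IRF7 (0.35) only 0.03 above. In SW620, SAMD9 and PARP12 had neighbours at 0.37 and 0.28 while the members themselves were at 0.21 and −0.03.

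**Figure D5:**
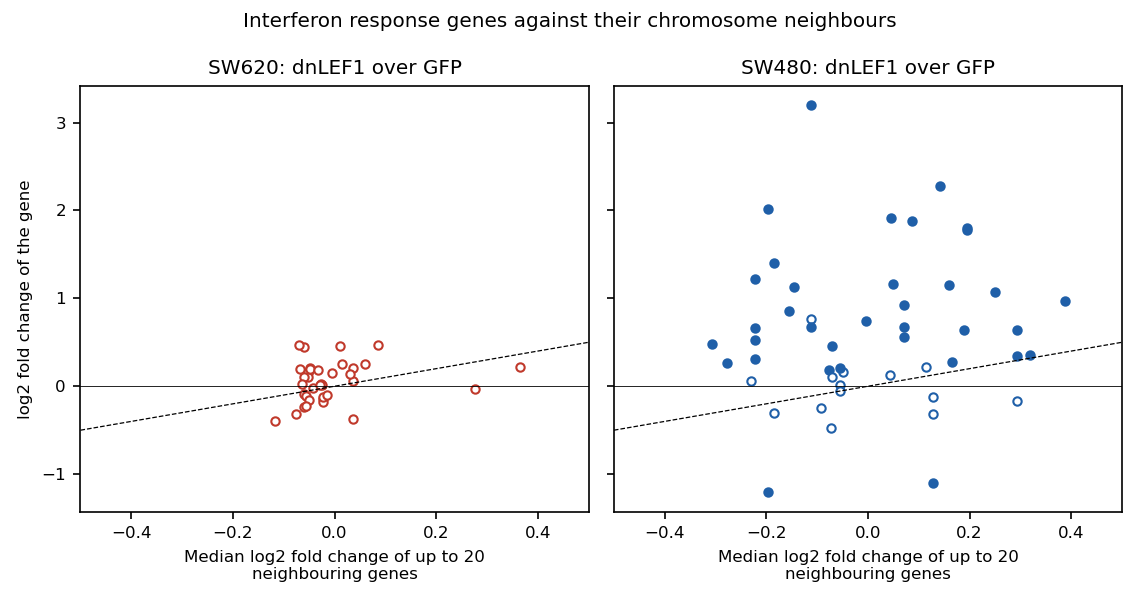
Log2 difference between dnLEF1 and GFP of each tested member (vertical) against the median of up to 20 neighbouring genes (horizontal), in SW620 (left) and SW480 (right), with a dashed line of equal values and filled points for members called. In SW480 the neighbours' medians lie between −0.31 and 0.39 and the members between −1.21 and 3.20.

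The interferon ligands, receptors and JAK-STAT genes were also read, from a list of 23. IFNA1, IFNA2, IFNB1 and IFNG had no counts in any group, and IFNL1 had 7 counts over the SW480 dnLEF1 libraries and none in the other 3 groups. IFNE, an epithelial type I interferon, had 22 counts in SW620 dnLEF1, 17 in SW620 GFP, 32 in SW480 dnLEF1 and 31 in SW480 GFP. IFNL2 had none, and IFNL3 had 2 counts or fewer in each group. Of 15 tested in SW480, 5 were higher in dnLEF1 (SOCS3, IFNLR1, STAT3, IFNGR2 and IL10RB), against 24.2% of all genes tested, and 2 lower (JAK2 and PIAS1), against 24.4%. SOCS3, which dampens JAK signalling, averaged 17.1 ± 1.8 CPM in SW480 dnLEF1 and 7.45 ± 1.26 CPM in SW480 GFP (SD, n = 4 each; log2 difference 1.20 ± 0.12, edgeR adjusted p = 1.963e-06). Of 14 tested in SW620, 1 was higher in dnLEF1, IFNGR2, a receptor chain for interferon gamma, at 47.7 CPM in dnLEF1 and 40.1 CPM in GFP, where 6.03% of all genes tested were higher. Between the lines, 2 of 15 tested were higher in SW620 GFP, against 37.7% of all genes tested, and 9 were lower, against 40.3%.

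Of 15 tested nucleic acid sensing genes in SW480, 6 were higher in dnLEF1, among them IRF3, IRF5, TICAM1, TMEM173 and TREX1, against 24.2% of all genes tested. Another 5 were lower (ADAR, SAMHD1, TLR3, TRIM25 and ZC3HAV1), against 24.4%. In SW620, 1 of 13 was higher, MAVS, the adaptor of RIG-I, at 259 CPM in dnLEF1 and 215 CPM in GFP, where again 6.03% of all genes tested were higher. Of 46 other interferon-stimulated genes, 39 were tested in SW480. Higher in dnLEF1 were 26 of them, against 24.2% of all genes tested, and lower were 2, among them PARP11, against 24.4%. Their median log2 difference was 0.58, against −0.0013 over all genes tested. RTP4 (2.27), LAMP3 (1.51), APOL1 (1.41) and CD274 (1.20), which encodes the immune checkpoint ligand PD-L1, were among those higher. RTP4 and GBP4, both counted among the 26, had 37 and 40 counts over the SW480 GFP libraries. These were too few to enter the test through SW480 GFP alone. In SW620, 2 of 33 were higher in dnLEF1 (SP140L and NUB1), against 6.03% of all genes tested, and 1 lower, against 2.43%. SP140L averaged 4.72 ± 0.45 CPM in SW620 dnLEF1 and 1.92 ± 0.22 CPM in SW620 GFP (log2 difference 1.30 ± 0.15, edgeR adjusted p = 7.566e-05).

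Markers of other cell types were read beside these results. In SW480, the summed level of the 5 leukocyte markers was 4.63 to 5.88 CPM in dnLEF1 and 2.29 to 4.15 CPM in GFP, with LYZ higher and CD14 not called, while PTPRC and CD3E had no counts in dnLEF1. The 5 fibroblast markers summed to 14.8 to 37.9 CPM in SW480 dnLEF1 and 4.58 to 7.19 CPM in SW480 GFP, of which COL1A1 was higher, PDGFRB lower and DCN without counts in both. The 3 endothelial markers summed to 2.19 to 3.73 CPM in SW480 dnLEF1 and 0.435 to 1.37 CPM in SW480 GFP, with VWF higher. The 8 colon epithelial markers, of which 6 were lower and 1, CDH1, higher in SW480 dnLEF1, summed to 7090 to 8512 CPM in SW480 dnLEF1 and 10720 to 12480 CPM in SW480 GFP. CDX2, the intestinal transcription factor, averaged 0.131 CPM in SW480 dnLEF1 and 12.2 CPM in SW480 GFP. In SW620, leukocyte markers summed to 3.12 to 4.15 CPM in dnLEF1 and 1.13 to 2.59 CPM in GFP, with LYZ higher, and fibroblast markers to 2.52 to 3.62 CPM in dnLEF1 and 4.40 to 5.91 CPM in GFP, with COL1A1 lower. The part of these marker levels in the member results was not tested.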

How the data were processed

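The submitters' processing notes name Trimmomatic, TopHat2, HTSeq and DESeq2 and the build hg38; the sources used here name no version, annotation or strand setting. The authors deposited raw counts per gene, in 16 files of 26485 gene symbols and 5 summary lines, and the summary lines entered neither library sizes nor tests. Differences were fitted to these counts by edgeR 4.0.16 under R 4.3.3 (TMM, filterByExpr, quasi-likelihood test, 8 libraries per comparison, 16 for the difference between lines), with p-values adjusted by Benjamini-Hochberg over all tested genes at 0.05. CPM use TMM factors over all 16 libraries. Alternatives were RLE, no low-count filter, DESeq2 1.42.0, limma voom 3.58.1, a replicate block, a fit of all 16 libraries and leaving out each library. The pipeline was tested on simulated data. The members, gene lists and roles were chosen with earlier results of these data known. In each comparison, values by library are given for up to 8 members with the smallest adjusted p in each direction, and for families of those. Replicate pairs had a chi-square per degree of freedom of 1.99 to 22.2 and were treated as separate samples. Member positions are from GENCODE on hg38, and promoters from RefSeq. Values of some genes on the related lists are not reported here.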

Additional observations from a re-analysis of the deposited data

Results flagged for a closer look

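IFI35 had 32.7 CPM in SW480 dnLEF1 replicate 1, above the other dnLEF1 libraries at 21.6 to 22.6 CPM. It was 1 of 84 groups of 4 libraries examined for a library far from the rest, and chance alone gives about 1 in 20. The dnLEF1 effect differed between the lines for 17 members by the interaction test, given as the SW620 minus the SW480 log2 effect. It was −1.19 for MX1, 1.28 for OAS2, −3.15 for OASL, −1.01 for IFI35, −1.46 for IFIT1, −0.39 for IFIT5, 0.38 for IFITM2, −0.58 for IFIH1 and −0.48 for DDX58. It was −2.28 for DHX58, −1.08 for ISG15, −0.29 for IRF1, 1.42 for SAMD9, −0.38 for PARP14, −1.08 for HERC6, −0.65 for TRIM21 and −0.55 for PML.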

How the results depend on the processing

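Alternatives were run for the counts of calls and for the up to 8 members with the smallest adjusted p in each direction of each comparison. None of these reversed, and those members kept their direction and call in all 511 combinations of a member and an alternative fit. Other members were followed by their calls alone. Members nearer the threshold, such as IFIH1, IRF9 and PARP14 in SW480, lost theirs in most fits that left out 1 library. The count of SW480 members lower in dnLEF1, 2 as reported, was 4 under the replicate block, where EIF2AK2 and ISG20 were added, and 4 without SW480 GFP replicate 1, where MX2 and OAS1 were added. In SW620, the replicate block called 1 member higher, IFITM2, and 3 lower, IFI6, IFIH1 and MX2, and the fit without SW620 dnLEF1 replicate 3 called 1 higher, IFITM3. The cause was not tested. The replicate numbers were not taken to pair the samples. Same-numbered libraries of the compared groups correlated in their deviations at −0.07 to 0.22 in SW480 and −0.0045 to 0.25 in SW620. Between the GFP groups the range was −0.011 to 0.15. In SW620, replicates 1, 3 and 4 correlated best with the library of their own number. Between the GFP groups, replicates 1, 2 and 4 did so. A pairing is not excluded in these comparisons. Leaving out each library gave 28 to 32 SW480 members higher and 2 to 4 lower, 0 to 1 SW620 members higher and 0 lower, 2 to 3 members higher and 32 to 35 lower between the GFP groups, and 3 to 4 and 11 to 14 with a higher and lower effect in SW620. Members near 0 in SW620 could not be measured there at this depth. Leaving out each library for the ratios of members with few counts was chosen after seeing the data.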

Other observations

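STAT2 was lowest in the library of replicate 1 in each of the 4 groups, at 37.9 CPM in SW620 dnLEF1, 38.1 CPM in SW620 GFP, 57.3 CPM in SW480 dnLEF1 and 54.0 CPM in SW480 GFP. SW480 GFP replicate 1 was also the lowest of its group for OAS2 (12.2 CPM), UBE2L6 (11.4 CPM) and ISG15 (23.3 CPM).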
